A study of Homo sapiens with 42 samples.

Results

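Cells of the human acute myeloid leukemia line HL-60, in which MYC is amplified, carried 1 of 2 short hairpin RNAs against EZH2 and were given all-trans retinoic acid (ATRA), and the hairpins were compared with each other. The labelled treatment chose the arrays: 3 of shEZH2#1+ATRA and 3 of shEZH2#2+ATRA, 6 of the 42 arrays of the series. Both groups had a lentiviral hairpin and puromycin selection (1.5 µM) followed by some days of recovery, and both then had 0.1 µM ATRA for 3 days. The hairpins were directed at separate stretches of EZH2 mRNA. The same 2 hairpins without ATRA gave 6 more arrays. A non-targeting hairpin (non-targeting Scr) and untransduced cells (WT) gave 3 each with ATRA and 3 each without. A further 18 arrays came from an inhibitor experiment without hairpins. Its cells had no inhibitor, GSK343 or HKMTI-1-005, each with and without ATRA. Both compounds inhibit EZH2, and HKMTI-1-005 also inhibits other histone methyltransferases. The selected cells are not described as single clones, and whether the biological triplicates of a hairpin came from separate transductions is not given in the sources used here. Differences between the hairpin sequences and differences between the transduced populations therefore cannot be told apart.

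EZH2 is the catalytic subunit of Polycomb repressive complex 2, which methylates lysine 27 of histone H3 at silenced genes. A short hairpin RNA is cut by Dicer into a small RNA that Argonaute proteins use to silence the transcripts it pairs with, and a pair of hairpins against one mRNA allows the effects they share to be separated from those of a single sequence. ATRA activates retinoic acid receptors and drives HL-60 cells along the granulocyte line. In that line the proteases of primary (azurophil) granules are made at the promyelocyte stage and the contents of secondary granules later, while eosinophils are a separate branch with granule proteins of their own.

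The level of a gene is given as the deposited log2 value of its brightest probe set, so that 1 unit is a 2-fold difference, and each difference is shEZH2#1+ATRA minus shEZH2#2+ATRA. Apart from placing marker genes on the scale, levels of different genes were not compared. A gene was called when its adjusted p in limma was 0.05 or less, the fold was at least 1.3 and its mean was among the top 40% of the 18417 genes measured (7367 genes). On the 6 arrays the myeloperoxidase gene MPO stood at 12.94 to 13.35 and CYBB, of the phagocyte oxidase, at 12.64 to 13.21, toward the top of a scale that ended at 14.5. The macrophage gene CD163 (4.04 to 4.30), the globin gene HBB (4.11 to 4.33) and the T cell gene CD3E (4.27 to 4.73) were near the bottom of the scale, whose lowest value was 3.18. Array medians were 5.34 to 5.38 with shEZH2#1+ATRA and 5.36 to 5.44 with shEZH2#2+ATRA (exact permutation p = 0.6, two-sided), and 192 genes of small nucleolar and Cajal body RNAs averaged 7.23 to 7.58 against 7.44 to 7.63 (exact permutation p = 0.5). With 3 arrays a side such a test cannot go below 0.1. No 2 arrays held identical values.

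EZH2 mRNA was below the non-targeting control with both hairpins, and the hairpins overlapped. With shEZH2#1+ATRA its level was 8.76, 9.18 and 9.18, with shEZH2#2+ATRA 8.96, 9.57 and 9.64, with non-targeting Scr+ATRA 9.93, 10.04 and 10.03 and with WT+ATRA 9.78, 10.22 and 10.33. All 6 knockdown arrays lay below all 6 control arrays. Against non-targeting Scr+ATRA, whose arrays serve both comparisons, the difference was -0.96 (SE 0.15, adjusted p = 0.000294) for shEZH2#1 and -0.60 (SE 0.15, adjusted p = 0.0428) for shEZH2#2. The call for shEZH2#2 held in 9 of 16 alternatives, with adjusted p = 0.00202 in a limma fit with a replicate block. It ended without its replicate 1 (-0.39, adjusted p = 0.413), without any 1 of the 3 non-targeting Scr+ATRA arrays (adjusted p = 0.0832 to 0.136) and in a fit of the 24 knockdown arrays alone (adjusted p = 0.208). Between the hairpins EZH2 differed by -0.35 (SE 0.15, adjusted p = 0.626), with a 95% interval of -0.67 to -0.04, and without ATRA by -0.01 (adjusted p = 0.989). EZH1, which encodes the alternative catalytic subunit, differed by -0.19 (adjusted p = 0.919), and the H3K9 methyltransferase genes EHMT2 and EHMT1 by 0.02 (adjusted p = 0.999) and 0.12 (adjusted p = 0.994). None of the 27 measured genes of Polycomb complexes was called, and their differences ran from -0.35 (EZH2) to 0.27 (PCGF2).

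**Figure D1:**
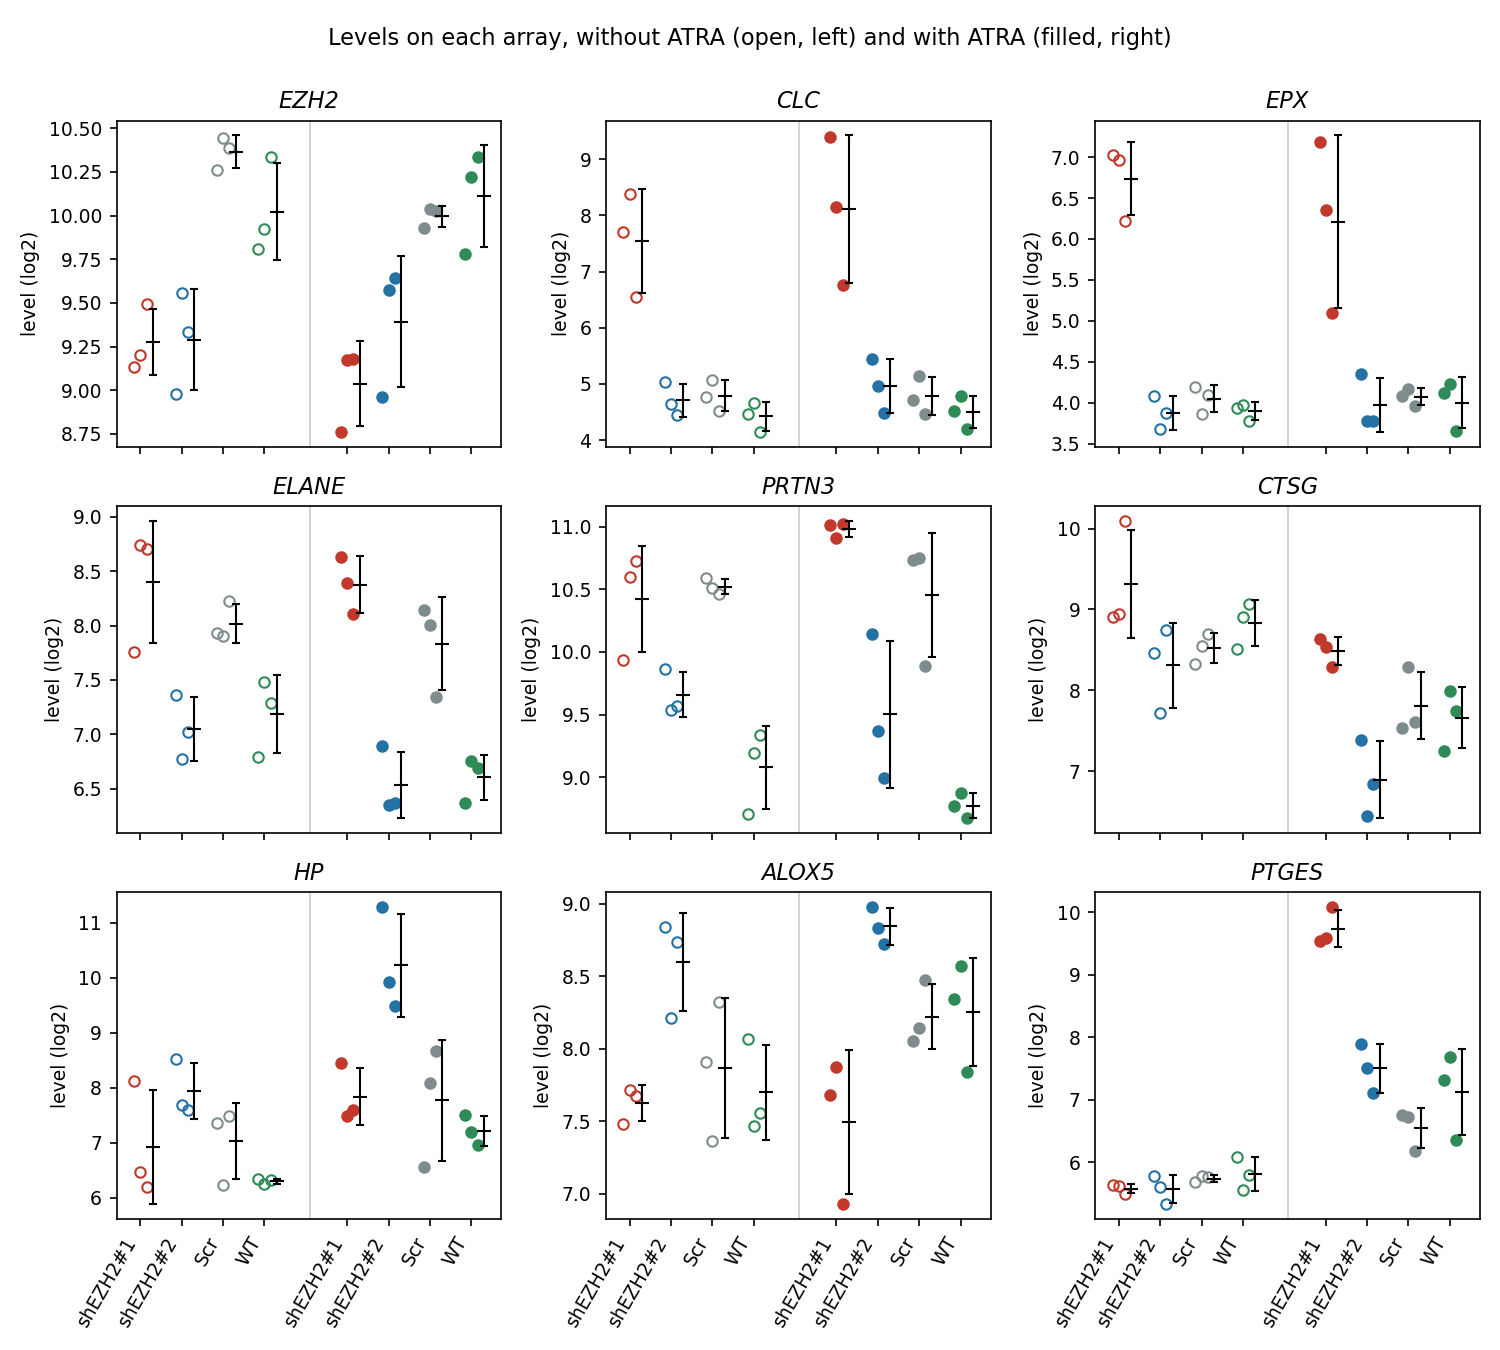
Log2 level of 9 genes on each knockdown array, by hairpin or control (x axis), without ATRA (open circles) and with ATRA (filled circles), with the mean and SD of 3 arrays beside them. EZH2 was lower with both hairpins than in either control, CLC and EPX were high only where shEZH2#1 was present among these groups, and HP was highest with shEZH2#2+ATRA.

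Between the hairpins, 33 of 7367 genes were called (0.448%). Of these, 24 were higher with shEZH2#1 (0.326%) and 9 were higher with shEZH2#2 (0.122%). The share of higher calls was 72.7%, and it was 53.7% of 41 calls after quantile normalization of the arrays. Without the filter on the level, 55 of 18417 genes (0.299%) were past both thresholds with shEZH2#1 higher and 17 (0.0923%) with shEZH2#2 higher. An unadjusted p under 0.05 was reached by 657 genes (3.57%) in the first direction and by 587 (3.19%) in the second. For 16088 genes (87.4%) the 95% interval of the difference lay within 1.5-fold either way, and for 18062 (98.1%) within 2-fold. Of the 7367 genes past the level filter, a smaller share, 5736 genes, had an interval within 1.5-fold. The median difference over all genes was -0.00212. The count of calls was 19 without shEZH2#2+ATRA replicate 2 and 20 without shEZH2#1+ATRA replicate 3, and 11 of the 33 genes kept their calls in all 6 fits that left out 1 array. When the inhibitor arrays were kept out of the fit 14 genes were called, 13 of them among the 33 (ELANE, PRTN3, CTSG, ATP6V1C2, NRG4, TFEC, P2RX1, PTK2, PIK3CB, HSDL1, SGMS2, ALOX5 and PTPRCAP).

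**Figure D2:**
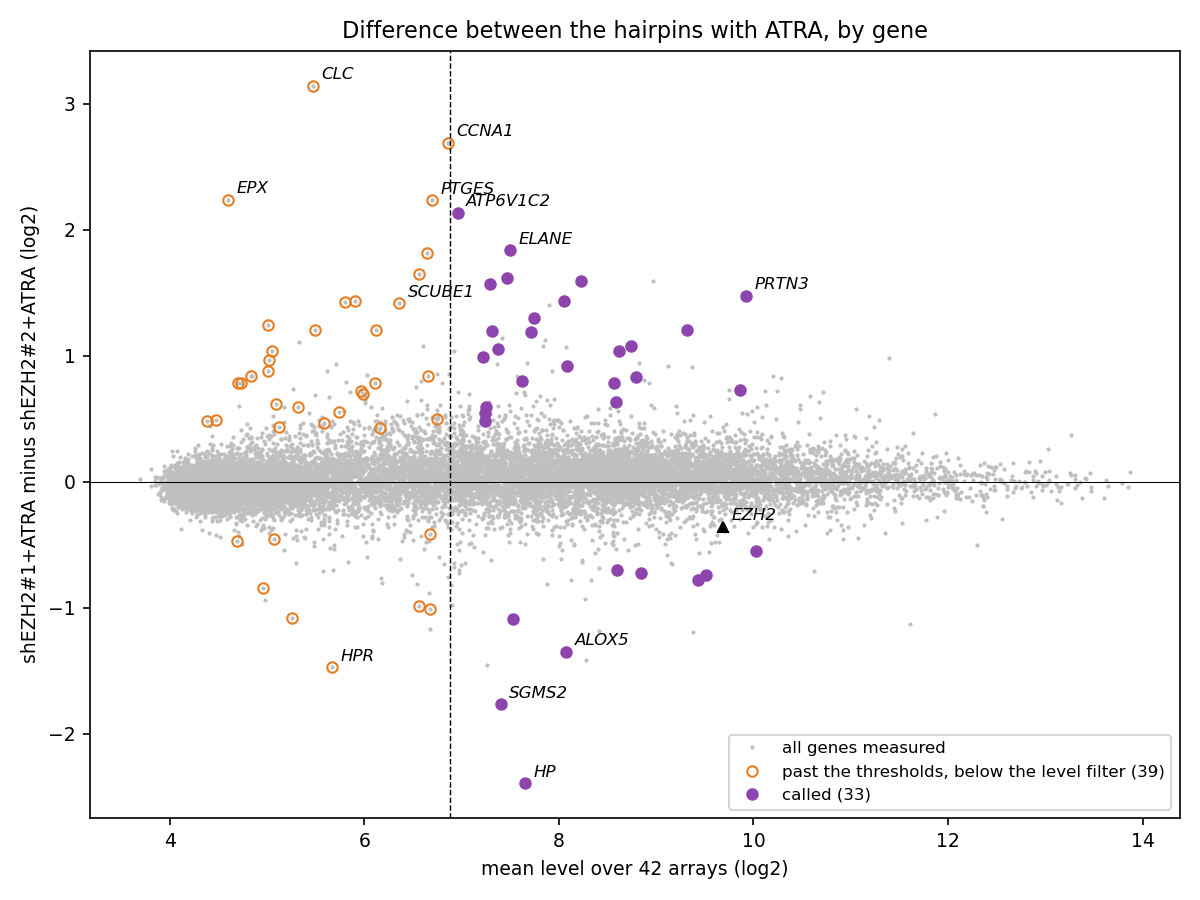
Difference between shEZH2#1+ATRA and shEZH2#2+ATRA (y axis, log2) against the mean level over 42 arrays (x axis, log2) for each of 18417 genes. Filled circles are the 33 called genes, open circles the 39 genes past both thresholds but left of the dashed line at the level filter (6.88), and the triangle is EZH2, which lies close to 0 beside CLC (3.15) or HP (-2.39).

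CLC, EPX and PRG2, genes of eosinophils, were higher with shEZH2#1. CLC, which encodes the Charcot-Leyden crystal protein galectin-10, stood at 9.41, 8.15 and 6.77 with shEZH2#1+ATRA and at 5.44, 4.96 and 4.49 with shEZH2#2+ATRA. EPX, eosinophil peroxidase, stood at 7.19, 6.35 and 5.10 against 4.35, 3.78 and 3.78. PRG2, the eosinophil major basic protein, stood at 7.37, 6.32 and 6.48 against 5.51, 5.06 and 5.28. In each of the 3 genes every shEZH2#1+ATRA array lay above every shEZH2#2+ATRA array, and replicate 1 was the highest of its group. Here and below, non-overlap only describes the genes named, since its share over all genes is not given. The differences were 3.15 (SE 0.43, adjusted p = 6.72e-05) for CLC, 2.24 (SE 0.27, adjusted p = 1.15e-05) for EPX and 1.44 (SE 0.23, adjusted p = 0.000557) for PRG2. With shEZH2#2+ATRA, EPX and the lowest CLC array lay at levels like those of CD163 and CD3E, near the bottom of the scale, so the differences in CLC and EPX are better read as lower limits. All 3 had means below the level filter, so they were not among the 33 called genes. They stayed past the other thresholds in all 6 fits that left out 1 array, and CLC, EPX and PRG2 had adjusted p = 0.142, 0.198 and 0.137 when only the 6 arrays were fitted. In bulk RNA more cells of a type and more RNA in each cell cannot be told apart.

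In CLC both controls given ATRA lay with shEZH2#2, and in EPX so did non-targeting Scr+ATRA. With non-targeting Scr+ATRA, CLC was at 4.72, 5.15 and 4.47 and with WT+ATRA at 4.52, 4.78 and 4.20, levels within the range of shEZH2#2+ATRA or just below it. Over the 30 arrays without an EZH2 hairpin the highest levels were 6.77 for CLC, 4.90 for EPX and 6.23 for PRG2. These arrays include those given GSK343 or HKMTI-1-005. For CLC the highest level was about that of the lowest shEZH2#1+ATRA array, and for PRG2 it was just below that array group. Against non-targeting Scr+ATRA, CLC differed by 3.33 (adjusted p = 1e-05) with shEZH2#1 and by 0.18 (adjusted p = 0.914) with shEZH2#2, and EPX by 2.14 (adjusted p = 8.67e-06) and -0.10 (adjusted p = 0.932). Without ATRA the same genes also stood apart: CLC differed between the hairpins by 2.84 (adjusted p = 0.000294), EPX by 2.86 (adjusted p = 1.1e-07) and PRG2 by 2.37 (adjusted p = 1.13e-07). Of the 12 measured eosinophil, basophil and mast cell genes, 3 were past both thresholds without the level filter, all higher with shEZH2#1, and the median difference was 0.01. Over all genes 55 of 18417 (0.299%) passed in that direction. Of the 12 differences 7 were above 0 and 5 below, the latter including PRG3 and CPA3 (-0.11 each). MS4A3, a membrane protein of granulocyte progenitors, differed by 0.98 (SE 0.24, adjusted p = 0.0547). It passed in 4 alternatives, with adjusted p = 0.0397 after quantile normalization. IL5RA, the interleukin-5 receptor of eosinophils, stayed at 4.01 to 4.34 on the 6 arrays. The mean level of the 12 genes was 5.96, 5.67 and 5.46 with shEZH2#1+ATRA and 5.19, 5.05 and 4.97 with shEZH2#2+ATRA.

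The second group that was higher with shEZH2#1 held ELANE, PRTN3 and CTSG, serine proteases of primary granules. ELANE, neutrophil elastase, stood at 8.63, 8.39 and 8.10 with shEZH2#1+ATRA and at 6.89, 6.35 and 6.37 with shEZH2#2+ATRA, and differed by 1.84 (SE 0.21, adjusted p = 6.33e-06). PRTN3, proteinase 3, stood at 11.01, 10.91 and 11.02 against 10.14, 9.37 and 8.99 and differed by 1.48 (SE 0.25, adjusted p = 0.000971). CTSG, cathepsin G, stood at 8.63, 8.54 and 8.29 against 7.39, 6.45 and 6.85 and differed by 1.59 (SE 0.33, adjusted p = 0.0139). The groups did not overlap in any of these genes. CFD, the complement protease factor D, was called too although it was in none of the lists, at 9.68, 9.41 and 9.08 against 9.06, 7.73 and 7.47, a difference of 1.30 (SE 0.28, adjusted p = 0.0194). In the order of genes in RefSeq, PRTN3, ELANE and CFD follow each other on chromosome 19 with 0 measured genes between them. AZU1, azurocidin, the measured gene on the other side of PRTN3, differed by 0.60 (adjusted p = 0.599), and MED16, a Mediator subunit next to CFD, by 0.16 (adjusted p = 0.983).

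Of the 11 measured genes of the primary granule list, 9 passed the level filter. Of these, 3 were called, all higher with shEZH2#1, and 0 were called lower. Among the 7367 genes past the level filter, 24 (0.326%) were called higher. An unadjusted p under 0.05 was reached by 5 genes higher and 0 lower, 10 of 11 differences were above 0, and the median was 0.27 beside -0.00212 over all genes. RNASE2, the eosinophil-derived neurotoxin, differed by 0.73 (adjusted p = 0.3) and MPO by 0.17 (adjusted p = 0.898). PRSS57, another serine protease of the list with a mean below the level filter, differed by 0.03 (adjusted p = 0.998). The controls stood on both sides of the hairpins. ELANE was at 8.15, 8.01 and 7.35 with non-targeting Scr+ATRA, nearer to shEZH2#1, and at 6.37, 6.75 and 6.69 with WT+ATRA, nearer to shEZH2#2. Against non-targeting Scr+ATRA, ELANE differed by 0.54 (adjusted p = 0.176) with shEZH2#1 and by -1.30 (adjusted p = 0.000695) with shEZH2#2. Against WT+ATRA it differed by 1.77 (adjusted p = 4.2e-06) and -0.07 (adjusted p = 0.968). ELANE and PRTN3 kept their calls in all 6 fits that left out 1 array, whereas CTSG and CFD were called in 2 of the 6 cases and lost without shEZH2#1+ATRA replicates 1 or 2 or shEZH2#2+ATRA replicates 2 or 3 (adjusted p = 0.0677 to 0.162 for CTSG and 0.0976 to 0.24 for CFD).

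The promoters of CLC, PRTN3, CTSG and CFD are shown because these genes differed between the hairpins, from 250 bases before to 50 bases after the start, as RefSeq gives them for GRCh38.p14. RefSeq promoters were at hand for 22 of the 33 called genes. Capitals mark the letters of motifs of myeloid factors, searched on both strands. The GATA motif was AGATAA or TGATAA. The C/EBP motif was TTGCNNAA, where N is any base. The motif of ETS factors, the family of PU.1, was GAGGAA. No match of one motif overlapped another in these windows.
CLC promoter (chr19:39737980-39738279, minus strand): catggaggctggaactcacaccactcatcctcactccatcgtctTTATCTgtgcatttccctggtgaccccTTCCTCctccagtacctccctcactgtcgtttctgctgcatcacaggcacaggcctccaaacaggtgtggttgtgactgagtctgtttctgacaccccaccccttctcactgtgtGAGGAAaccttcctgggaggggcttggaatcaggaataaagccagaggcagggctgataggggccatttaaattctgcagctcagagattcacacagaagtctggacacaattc
PRTN3 promoter (chr19:840749-841048, plus strand): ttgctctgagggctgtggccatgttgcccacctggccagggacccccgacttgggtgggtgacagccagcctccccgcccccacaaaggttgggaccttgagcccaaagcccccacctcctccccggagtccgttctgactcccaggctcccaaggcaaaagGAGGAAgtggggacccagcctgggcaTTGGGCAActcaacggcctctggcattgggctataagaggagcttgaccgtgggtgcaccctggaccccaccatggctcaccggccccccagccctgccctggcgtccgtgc
CTSG promoter (chr14:24576201-24576500, minus strand): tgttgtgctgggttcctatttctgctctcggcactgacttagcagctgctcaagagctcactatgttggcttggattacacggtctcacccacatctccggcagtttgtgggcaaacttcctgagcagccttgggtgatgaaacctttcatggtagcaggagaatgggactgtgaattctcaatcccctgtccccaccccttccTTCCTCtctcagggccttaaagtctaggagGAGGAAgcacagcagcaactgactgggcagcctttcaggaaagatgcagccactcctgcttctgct
CFD promoter (chr19:859414-859713, plus strand): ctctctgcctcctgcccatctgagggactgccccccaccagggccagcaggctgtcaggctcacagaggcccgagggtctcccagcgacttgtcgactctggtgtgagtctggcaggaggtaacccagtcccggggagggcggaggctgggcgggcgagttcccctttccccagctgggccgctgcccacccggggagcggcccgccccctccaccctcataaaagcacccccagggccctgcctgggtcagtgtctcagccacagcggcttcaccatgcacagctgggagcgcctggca
The CLC window held 1 GATA match, on the opposite strand, and 2 ETS matches. The PRTN3 window held 1 C/EBP and 1 ETS match, 62 and 88 bases before the start at their first letter, the CTSG window held 2 ETS matches, and the CFD window held 0 matches of the 3 motifs. Of 35116 RefSeq promoters of that length, 16.3% held the GATA letters, 10.5% the C/EBP letters and 27.9% the ETS letters. A match of letters is a description and not evidence of binding.

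The 9 genes that were higher with shEZH2#2 included genes of later granules and of maturation. HP, haptoglobin, which neutrophils keep in secondary granules, stood at 8.44, 7.48 and 7.60 with shEZH2#1+ATRA and at 11.28, 9.92 and 9.49 with shEZH2#2+ATRA. The difference was -2.39 (SE 0.50, adjusted p = 0.015), 5.24-fold, and the groups did not overlap. Against non-targeting Scr+ATRA, HP differed by 0.07 (adjusted p = 0.967) with shEZH2#1 and by 2.46 (adjusted p = 0.00649) with shEZH2#2. Its neighbour HPR, a near-identical copy whose probes may share signal with HP, differed by -1.47 (adjusted p = 0.00483) below the level filter. The HP call was lost without shEZH2#1+ATRA replicate 2 or 3 or shEZH2#2+ATRA replicate 1 (adjusted p = 0.0846 to 0.136). STOM, stomatin, a membrane protein also found on granules, stood at 9.23, 9.22 and 8.84 against 10.42, 9.80 and 9.40 and differed by -0.78 (SE 0.16, adjusted p = 0.0109). These were the 2 called genes among 21 measured genes of the secondary and tertiary granule list, both lower with shEZH2#1. Only 6 of the 21 passed the level filter. Among the 7367 genes past the level filter, 9 (0.122%) were called lower. The list's median was -0.02, and 0.01 and 0.00344 after quantile normalization and after centring, so the list as a whole had no settled direction.

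ALOX5, the 5-lipoxygenase of leukotriene synthesis, stood at 7.68, 7.87 and 6.93 with shEZH2#1+ATRA and at 8.97, 8.83 and 8.72 with shEZH2#2+ATRA. It differed by -1.35 (SE 0.24, adjusted p = 0.00232), without overlap, and was the 1 called gene among 45 measured maturation genes. Of these 45, 28 passed the level filter, and over all 7367 such genes 9 (0.122%) were called lower. The ALOX5 call ended without shEZH2#1+ATRA replicate 3, the lowest array (adjusted p = 0.0542). ITGAM, which encodes CD11b, the surface marker of maturation in this system, stood at 8.28, 8.14 and 7.87 against 9.68, 8.67 and 8.04 and overlapped between the hairpins. Its difference was -0.70 (SE 0.28, adjusted p = 0.525), and its level in the controls was lower than both, at 6.35, 6.69 and 6.44 with non-targeting Scr+ATRA. Against that control ITGAM differed by 1.60 (adjusted p = 0.000761) with shEZH2#1 and by 2.30 (adjusted p = 1.28e-05) with shEZH2#2. CEBPE, a factor of late granulocyte maturation, differed by -0.51 (adjusted p = 0.497), and CD36 and CD14, a scavenger receptor and a monocyte receptor, by -0.16 (adjusted p = 0.998) and -0.12 (adjusted p = 0.963). The list's median was -0.02 and became 0.00427 after centring of the arrays.

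SGMS2, a sphingomyelin synthase, had the second largest difference toward shEZH2#2 among the called genes, at 6.58, 6.46 and 6.06 against 8.68, 7.85 and 7.87, a difference of -1.77 (SE 0.29, adjusted p = 0.000668). NRP2, a neuropilin receptor, differed by -1.09 (SE 0.26, adjusted p = 0.0424), and its second probe set by -1.19. PTPRCAP, which binds the phosphatase CD45, stood at 8.97, 8.92 and 8.60 against 9.67, 9.40 and 9.64 and differed by -0.74 (adjusted p = 0.000668). Both controls given ATRA lay with shEZH2#2 in that gene, at 9.45, 9.60 and 9.60 and 9.15, 9.69 and 9.59. ATP8B2, a phospholipid flippase, showed the same arrangement, with a difference of -0.70 (adjusted p = 0.00483), and -0.81 and -0.11 against non-targeting Scr+ATRA for shEZH2#1 and shEZH2#2. CDCA7, a cell division cycle associated gene, and HBS1L, a ribosome rescue factor, differed by -0.72 (adjusted p = 0.0297) and -0.55 (adjusted p = 0.0252). SGMS2 and PTPRCAP were called whichever array was left out.

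Outside the granule lists, the largest called difference was in ATP6V1C2, a subunit of the proton pump of acidic vesicles. It stood at 8.82, 8.70 and 8.36 with shEZH2#1+ATRA, at 6.87, 6.31 and 6.29 with shEZH2#2+ATRA and at 6.46, 6.61 and 5.96 with non-targeting Scr+ATRA. The difference between the hairpins was 2.14 (SE 0.26, adjusted p = 1.64e-05), 4.4-fold. NRG4, a neuregulin growth factor, differed by 1.62 (SE 0.26, adjusted p = 0.000534), and stood at 8.05, 7.86 and 8.38 against 6.58, 6.35 and 6.50. TFEC, a MiT family transcription factor of myeloid cells, stood at 8.56, 8.55 and 9.17 against 7.14, 7.16 and 7.26 and differed by 1.57 (SE 0.27, adjusted p = 0.00158). P2RX1, an ATP-gated channel, stood at 8.83, 8.44 and 8.17 against 7.52, 6.79 and 6.81 and differed by 1.44 (SE 0.24, adjusted p = 0.000869). No array of one hairpin reached the range of the other in these 4 genes, but the rule that named them asked for this. The calls of ATP6V1C2, NRG4, TFEC and P2RX1 were kept whichever array was left out.

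Genes of adhesion and of the cell cortex were among the rest. ITGA5, the fibronectin receptor chain, stood at 10.43, 10.33 and 10.88 against 9.70, 9.10 and 9.22 and differed by 1.21 (adjusted p = 0.0197). PTK2, focal adhesion kinase, stood at 7.45, 7.69 and 7.60 against 6.70, 6.55 and 6.52 and differed by 0.99 (adjusted p = 0.000283). AHNAK, a giant scaffold protein, and CLDN12, a claudin, differed by 1.08 (adjusted p = 0.00749) and 1.04 (adjusted p = 0.0392). In PTK2 the controls split as in ELANE but the other way, with non-targeting Scr+ATRA at 6.69, 6.51 and 6.06 and WT+ATRA at 7.59, 7.78 and 7.21. MLC1, a membrane protein best known from astrocytes, and CA2, a carbonic anhydrase, differed by 1.19 (adjusted p = 0.0332) and 1.19 (adjusted p = 0.00884). The remaining 9 called genes with higher levels under shEZH2#1 differed by 0.48 (TOGARAM1) to 0.92 (AIG1). They include NOTCH2, a Notch receptor, at 0.83, PIK3CB, a catalytic subunit of phosphoinositide 3-kinase, at 0.73, and the mitotic kinase PBK at 0.79.

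**Figure D3:**
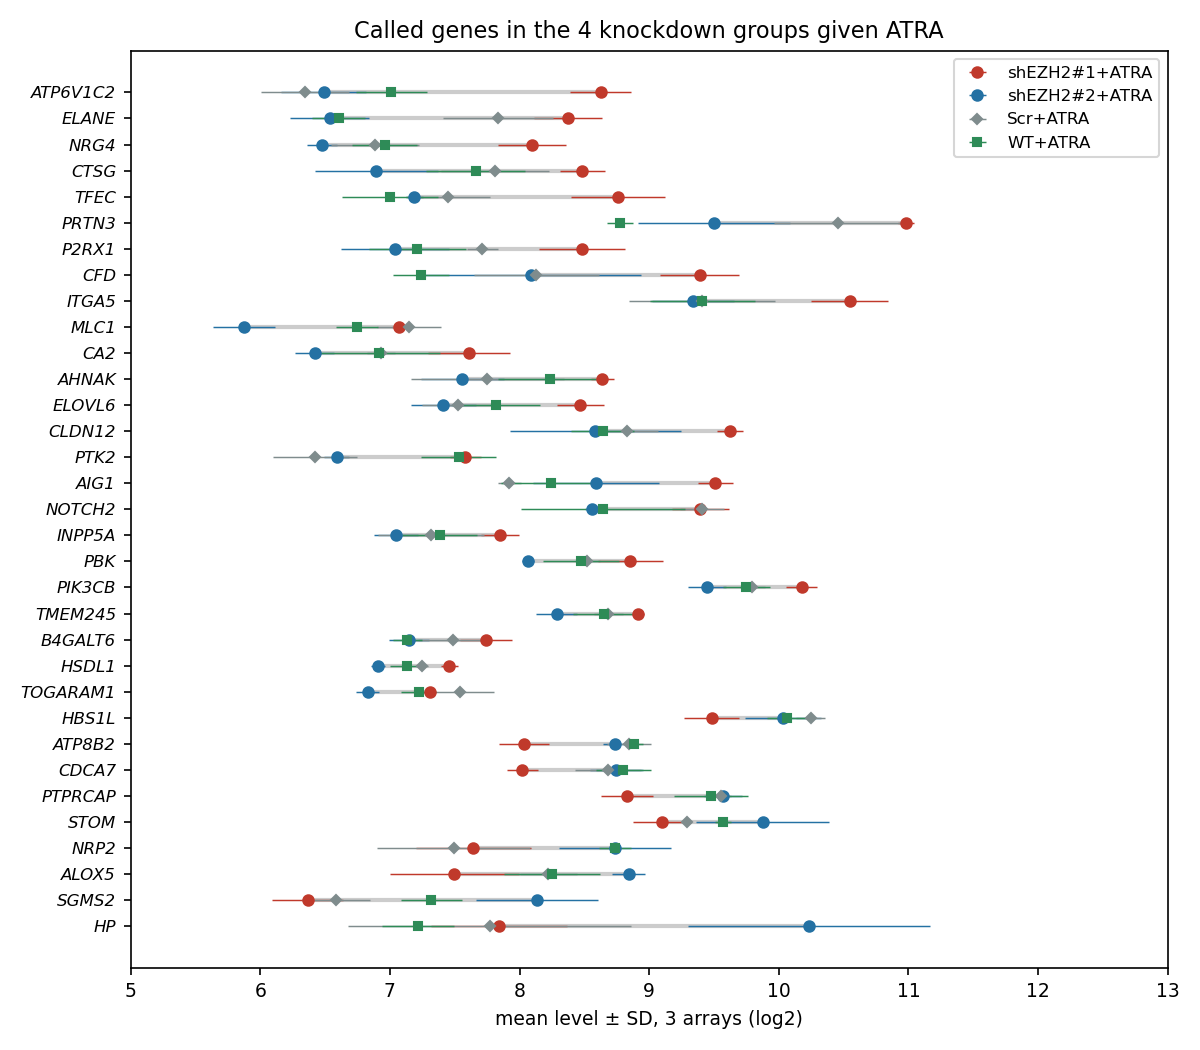
Mean level and SD (x axis, log2) of the 33 called genes in the 4 knockdown groups given ATRA, 3 arrays each, ordered by the difference between the hairpins, with a grey line joining the hairpins. Non-targeting Scr+ATRA lay between the hairpins in 23 genes and WT+ATRA in 24.

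The controls entered the choice of the 33 genes through the shared estimate of spread and the level filter, but not through the difference. Set beside them, neither hairpin was the one that stood apart throughout. The mean of non-targeting Scr+ATRA was nearer to shEZH2#2+ATRA in 19 of the 33 genes and nearer to shEZH2#1+ATRA in 14, and that of WT+ATRA in 26 and 7. Both controls were nearer to shEZH2#2+ATRA in 17 genes and both nearer to shEZH2#1+ATRA in 5. Over all 18417 genes the Euclidean distance between arrays was 28.6 on average within shEZH2#1+ATRA, 33.6 within shEZH2#2+ATRA and 34.6 (30.9 to 39.3) between them. The distance to non-targeting Scr+ATRA averaged 44.4 and 42.4, and the distance of each hairpin to its own arrays without ATRA 50.1 and 50.5.

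Sterol and fatty acid synthesis was the list with the largest median difference. Its genes encode the enzymes that make cholesterol and long-chain fatty acids. Of 27 measured genes 26 were above 0, with a median of 0.37, where 9071 of all 18417 genes were above 0. Of the 27, 23 passed the level filter, and over all 7367 such genes 24 (0.326%) were called higher. ELOVL6, a fatty acid elongase, was the 1 called gene, at 8.32, 8.42 and 8.67 with shEZH2#1+ATRA and 7.66, 7.16 and 7.42 with shEZH2#2+ATRA, a difference of 1.06 (SE 0.23, adjusted p = 0.0194). It was called in 2 of the 6 fits that left out an array, and lost without shEZH2#1+ATRA replicates 2 or 3 or shEZH2#2+ATRA replicates 2 or 3. An unadjusted p under 0.05 was reached by 7 genes, all with shEZH2#1 higher. INSIG1, which holds the sterol sensor in place, differed by 0.94 (adjusted p = 0.3), HMGCS1, the synthase ahead of the rate-limiting step, by 0.82 (adjusted p = 0.329) and FADS1, a fatty acid desaturase, by 0.92 (adjusted p = 0.54). The mean level of the 27 genes was 9.07, 9.02 and 8.97 with shEZH2#1+ATRA and 8.97, 8.58 and 8.35 with shEZH2#2+ATRA, so that the groups touched at 8.97. It was 8.30, 8.58 and 8.02 with non-targeting Scr+ATRA. Without ATRA the list's median between the hairpins was -0.12. The median stayed above 0 under both other scalings (0.35 and 0.39).

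**Figure D4:**
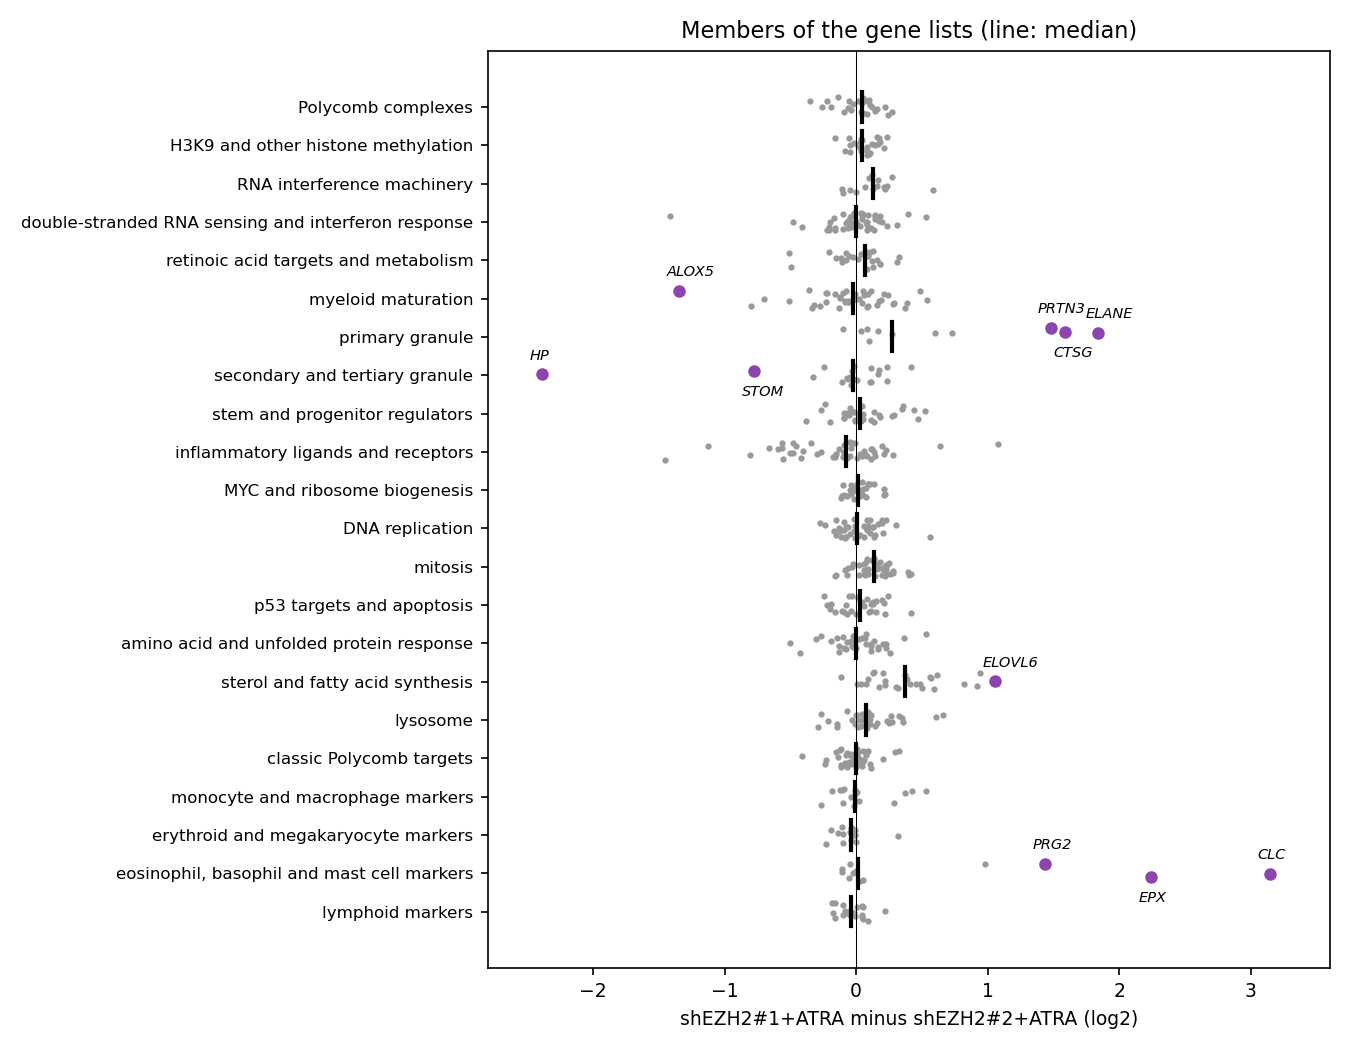
Difference between the hairpins with ATRA (x axis, log2) for each measured member of 22 gene lists (y axis). Filled and named points are past both thresholds without the level filter, and black lines are list medians, of which sterol and fatty acid synthesis (0.37) and primary granule (0.27) lay farthest from 0.

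Most other lists held no called gene. Of 15 measured genes of RNA interference, through which hairpins act, 0 were called and 1 was under an unadjusted p of 0.05. That gene was AGO1, an Argonaute, at 9.49, 9.81 and 9.84 against 9.19, 9.07 and 9.12, a difference of 0.59 (SE 0.19, adjusted p = 0.26), and DGCR8 and TNRC6A differed by 0.27 and 0.21. Of 47 measured genes of double-stranded RNA sensing and the interferon response, 14 passed the level filter and 0 were called. TLR8, an endosomal RNA sensor, stood at 8.67, 8.43 and 7.31 against 9.96, 9.57 and 9.12 and differed by -1.41 (SE 0.38, adjusted p = 0.101), while IFI16 and TRIM22 differed by -0.48 and -0.41. In the limma fit the 3 lists of Polycomb complexes, RNA interference and interferon response held 1, 1 and 3 genes with an unadjusted p under 0.05, of 27, 15 and 47.

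None of 51 measured inflammatory ligands and receptors was called, and 2 were higher and 4 lower at an unadjusted p under 0.05. P2RY13, a purine receptor, stood at 9.73, 9.40 and 8.08 against 11.72, 10.27 and 9.56 and differed by -1.45 (SE 0.42, adjusted p = 0.16). S100A8, the calprotectin subunit of neutrophils, stood at 12.14, 12.20 and 11.01 against 13.59, 12.92 and 12.23 and differed by -1.13 (SE 0.33, adjusted p = 0.172). The hairpins overlapped in P2RY13 and came close to overlap in S100A8. CCL5 differed by 0.63 (adjusted p = 0.338). Of 25 retinoic acid targets and enzymes of retinoid metabolism, 0 were called, with 1 higher and 2 lower at an unadjusted p under 0.05 (RXRA 0.31, CEBPE -0.51, RDH10 -0.50).

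In the stem and progenitor list (32 measured, 0 called) the smallest p belonged to ID1, an inhibitor of helix-loop-helix factors, with a difference of 0.52 (adjusted p = 0.0996), then TAL1 (-0.20) and TCF7L2 (-0.38). GATA2, a progenitor and eosinophil factor, stood at 5.99, 6.02 and 5.84 against 5.51, 5.22 and 5.72 with ATRA and at 7.96, 8.51 and 7.74 against 6.63, 7.10 and 6.52 without it. The differences were 0.47 (adjusted p = 0.559) and 1.32 (adjusted p = 0.000213). Mitosis genes leaned toward shEZH2#1 (37 of 44 above 0, median 0.14), with 2 under an unadjusted p of 0.05, DLGAP5 (0.42) and CENPE (0.23), and 0 called. Of 45 DNA replication genes 0 were called and 0 reached an unadjusted p under 0.05, with CCNE2 at 0.56. Among 32 MYC and ribosome biogenesis genes the counts were the same, and MYC itself differed by -0.07 (adjusted p = 0.998) with an interval of -0.67 to 0.53. The lists for H3K9 and other histone methylation (27 genes), p53 and apoptosis (30), amino acid and unfolded protein response (35), lysosome (35), classic Polycomb targets (47), monocyte and macrophage (17), erythroid and megakaryocyte (16) and lymphoid genes (21) also held 0 called genes, with at most 5 members each at an unadjusted p under 0.05. The lowest p in the lysosome list was that of NPC2, a cholesterol carrier (0.66). Other genes that the study followed differed by -0.27 (adjusted p = 0.914) for LEF1, 0.18 (adjusted p = 0.92) for SMYD2, -0.02 (adjusted p = 0.999) for MLLT3, -0.09 (adjusted p = 0.997) for SLAMF7, -0.27 (adjusted p = 0.993) for GPR65 and -0.57 (adjusted p = 0.985) for FCER2. The housekeeping gene GAPDH stood at 13.40, 13.39 and 13.43 against 13.44, 13.40 and 13.39.

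The same hairpins without ATRA, on 6 other arrays, asked whether the differences were also there in the absence of ATRA. There 37 of 7367 genes were called (0.502%), and 73 of 18417 (0.396%) without the level filter. Of the 37, 75.7% were higher with shEZH2#1, and the share was 53.1% of 49 calls after quantile normalization and 88.9% of 18 after centring on the array medians. The smallest p with shEZH2#1 higher belonged to APOBEC3B, a cytidine deaminase (2.19 (adjusted p = 6.42e-05)), B4GALT6, a lactosylceramide synthase (0.93 (adjusted p = 0.000161)), ELANE (1.35 (adjusted p = 0.000521)), the metallothionein MT1F (0.92 (adjusted p = 0.00176)) and TMEM154 (1.05 (adjusted p = 0.00296)). With shEZH2#2 higher they were ATP8B2 (-0.93 (adjusted p = 0.000161)), PSTPIP2, an adaptor of the macrophage cytoskeleton (-0.66 (adjusted p = 0.000905)), HBS1L (-0.56 (adjusted p = 0.0233)), MS4A6A (-1.33 (adjusted p = 0.0254)) and the homeobox gene DLX2 (-1.15 (adjusted p = 0.0372)). With ATRA these genes differed by 1.14, 0.59, 1.84, 0.52 and 0.16 in the first direction and by -0.70, -0.28, -0.55, -0.14 and -0.82 in the second. The count without ATRA was 0 when only the 6 arrays were fitted (648 genes at an unadjusted p under 0.05 among the 7367), and 15 to 22 when 1 of 5 of these arrays was left out (shEZH2#1 replicates 1 or 2, or any of shEZH2#2). It was 19, with 31.6% higher with shEZH2#1, without the 6 knockdown arrays of highest median, which hold 2 of the 6 arrays without ATRA and 0 of the 6 with ATRA.

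All 33 genes called with ATRA differed in the same direction without it, 29 of them at an unadjusted p under 0.05, and 9 were called in both, which is 27.3% of the 33 and 24.3% of the 37. Of the 100 genes of smallest p without ATRA, 90 kept their direction with ATRA, 60 of them at an unadjusted p under 0.05, and their median difference with ATRA, counted in the direction seen without it, was 0.31. Over all genes the differences with and without ATRA had a correlation of 0.50 (Pearson, across 18417 genes, which are not independent replicates) and 60.8% had the same sign. The comparisons share no arrays, but the cells with and without ATRA may come from the same transductions.

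**Figure D5:**
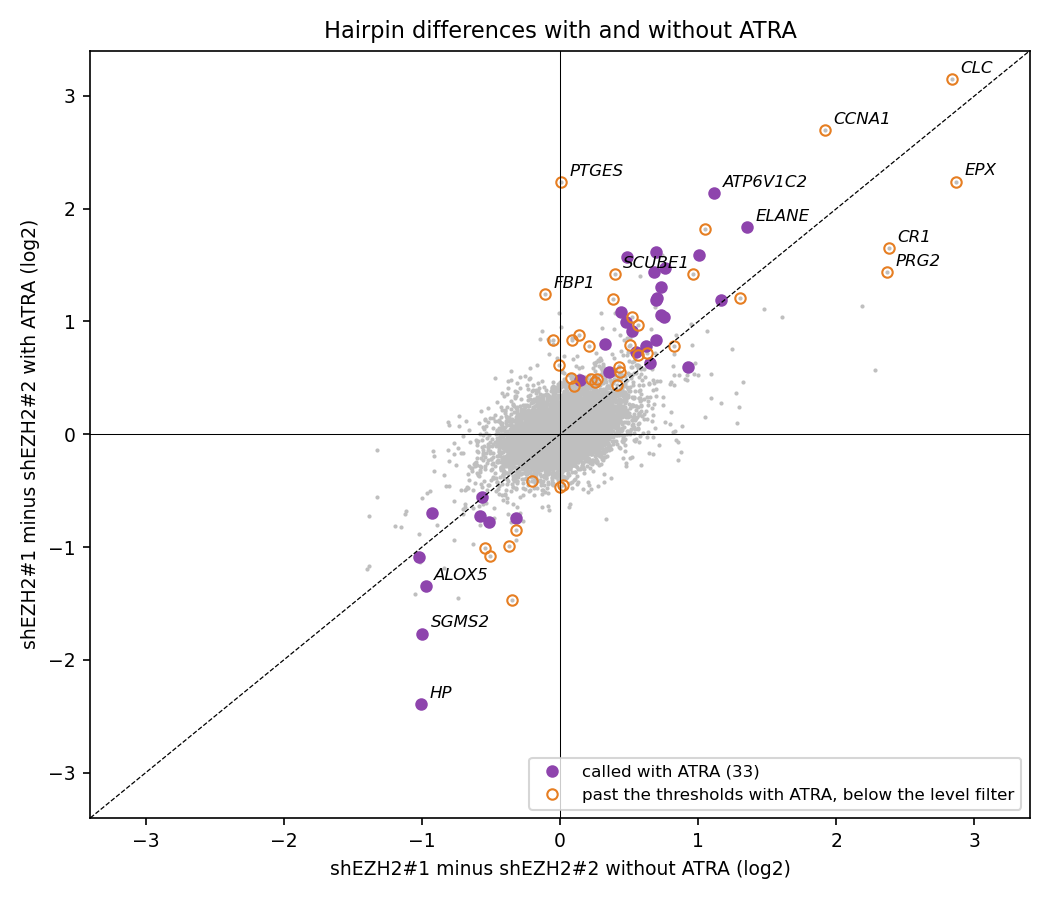
Difference between the hairpins with ATRA (y axis, log2) against that without ATRA (x axis, log2) for 18417 genes, with the dashed line marking equal differences. The 33 called genes (filled) have the same sign on both axes, CLC and EPX lie far from 0 on both axes, and PTGES and FBP1 lie near 0 on the x axis alone.

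A test of the difference between these differences, the hairpin by ATRA interaction in limma, called 0 of 7367 genes, where 68 were higher and 66 lower at an unadjusted p under 0.05. Without the level filter 3 of 18417 genes (0.0163%) passed, SCUBE1, FBP1 and LYPD6B. PTGES, a prostaglandin E synthase named here after its values were seen, came close. It stood at 9.54, 9.59 and 10.08 with shEZH2#1+ATRA and 7.89, 7.50 and 7.11 with shEZH2#2+ATRA, and at 5.63, 5.62 and 5.49 and 5.77, 5.60 and 5.33 without ATRA. ATRA raised it by 4.16 with shEZH2#1 and by 1.93 with shEZH2#2, and the interaction was 2.23 (SE 0.43, adjusted p = 0.0567).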

How the data were processed

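The 42 arrays (Affymetrix Human Gene 1.0 ST) hold RNA of HL-60 cells. GC-RMA and a removal of batch and date effects, both in Partek, were applied by the authors before deposit. The deposited values were taken as log2 from their range (3.18 to 14.5) and from what GC-RMA gives. The sources used here name neither batches nor versions, so no batch term was fitted and the effect of the correction could not be examined. Probe sets with 1 gene symbol (19460 of 33297; 1754 had several and 12083 none) were kept, and the one of highest mean stood for each of 18417 genes. RARA, whose probe set also names another gene, was not analysed here.

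Group means of all 42 arrays, which share 1 estimate of spread, were fitted with limma 3.58.1 in R 4.3.3 (28 residual and 3.37 prior degrees of freedom), followed by Benjamini-Hochberg adjustment over 18417 genes. Intervals are 95% and single values were compared by exact permutation tests. Calls needed an adjusted p of 0.05 or less, a fold of 1.3 and a mean in the top 40% of genes (6.88 or more), after the study's methods. The groups, the 22 gene lists and the rule for named genes (the 15 largest non-overlapping calls in each direction, the genes the study named, called list members or up to 3 of smallest p, and the 5 of smallest p in each direction for the comparison without ATRA) were chosen with earlier results of these data known. Non-overlap of the groups was part of that rule. Its share over all genes is not given, so it only describes the genes named. The procedure was tested on simulated data. Alternatives changed the arrays fitted, the variance model, the scaling, the filters, the probe sets and the test, and left out each array in turn.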

Additional observations from a re-analysis of the deposited data

Results flagged for a closer look

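The difference between the hairpins with ATRA differed from that without ATRA in 3 genes, all with means below the level filter (interaction in limma, adjusted over 18417 genes). SCUBE1, a secreted and membrane-bound EGF repeat protein, stood at 7.64, 7.64 and 7.86 with shEZH2#1+ATRA and 6.57, 6.17 and 6.15 with shEZH2#2+ATRA, and at 6.10, 6.17 and 6.31 and 5.85, 5.59 and 5.96 without ATRA. Its interaction was 1.02 (SE 0.19, adjusted p = 0.0476). FBP1, the gluconeogenic fructose-1,6-bisphosphatase, stood at 6.83, 6.29 and 7.20 against 5.59, 5.44 and 5.55 with ATRA and at 4.55, 4.47 and 4.24 against 4.65, 4.24 and 4.69 without it, an interaction of 1.35 (SE 0.25, adjusted p = 0.0476). In both genes the hairpins did not overlap with ATRA, and the 3 non-targeting Scr+ATRA arrays lay below every shEZH2#1+ATRA array. Without ATRA, FBP1 lay near the bottom of the scale with both hairpins, where a difference between them would be compressed. LYPD6B stood at 4.90, 4.90 and 4.99 against 5.20, 5.15 and 5.04 with ATRA and at 5.88, 5.40 and 5.40 against 5.01, 5.08 and 5.03 without it, an interaction of -0.72 (SE 0.13, adjusted p = 0.0476). It was higher with shEZH2#1 without ATRA (0.52 (adjusted p = 0.00462)) and differed by -0.20 (adjusted p = 0.709) with ATRA.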

How the results depend on the processing

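Of the alternatives, quantile normalization (41), a replicate block (29), trend and robust variances (35), the mean of a gene's probe sets (36), no minimum fold (34), a 1.5-fold minimum (30) and adjustment over the filtered genes (36) kept the count of calls with ATRA within 1.5 times the 33. It was 14 with the 24 knockdown arrays alone, 20 with centred arrays, 11 with only the 6 arrays compared, 72 without the level filter and 19 to 43 when 1 array was left out. The corresponding counts without ATRA (37) were 9, 18, 0, 73 and 15 to 48, with 23 at 1.5-fold, 57 adjusted over the filtered genes, and 19 without the 6 knockdown arrays of highest median, an alternative chosen after seeing the data. An unpaired t-test, the study's general default, was also run with Benjamini-Hochberg adjustment. For its arrays the study states only that false discovery rates were tested across all conditions. The t-test called 0 genes with and 0 without ATRA (lowest adjusted p 0.131 and 0.0603). At its unadjusted p under 0.05, with the fold and level filters, there were 176 and 159. The interaction gave 0 calls except without the level filter (3). The cause of these changes was not tested beyond fewer samples or other genes entering a fit.

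What arrays of the same replicate number share is not given in the labels, and the main fit did not use the number. Deviations of same-numbered arrays of the hairpins with ATRA correlated at 0.26, 0.04 and 0.31. Differently numbered arrays correlated at -0.33 to 0.01, so each array correlated best with its own number. A replicate block moved the calls to 29 with ATRA (28 shared) and 29 without, and with only the 6 arrays to 43 and 0. EZH2 with shEZH2#2 against non-targeting Scr+ATRA was -0.60 with a replicate block (adjusted p = 0.00202, limma) and -0.60 with the 24 arrays (adjusted p = 0.208, limma). It was -0.61 after quantile normalization (adjusted p = 0.0541) and -0.57 with centred arrays (adjusted p = 0.077), and -0.73 to -0.39 when 1 array was left out. No difference of a called gene changed sign under these alternatives. The same held for CLC, EPX, PRG2, CCNA1, PTGES, SCUBE1, FBP1, CR1, MERTK and HPR. For the other named genes this is not given. List medians near 0 did change sign, as given for the granule and maturation lists. With 3 arrays per group the precision is limited: the median SE of a difference was 0.114, and genes near background have compressed differences.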

Other observations

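Genes below the level filter other than CLC, EPX, PRG2 and HPR also stood apart between the hairpins with ATRA. They are named here after their values were seen. CCNA1, the cyclin A of germ cells and of myeloid leukemia, stood at 8.94, 8.63 and 8.24 with shEZH2#1+ATRA and 6.66, 5.50 and 5.56 with shEZH2#2+ATRA, a difference of 2.69 (SE 0.39, adjusted p = 0.000169). Without ATRA it differed by 1.92 (adjusted p = 0.0121). MSRB3, a methionine sulfoxide reductase, differed by 1.82 (adjusted p = 0.000283). Phagocyte receptors were among them as well: MERTK, which takes up dying cells, stood at 7.51, 7.75 and 6.84 against 6.38, 6.22 and 5.89 (1.20 (adjusted p = 0.000668)), and CR1, a complement receptor, at 8.88, 8.61 and 7.07 against 6.66, 6.53 and 6.42 (1.65 (adjusted p = 0.00851)). The CCNA1, MSRB3 and MERTK results stayed past the thresholds whichever of the 6 arrays was left out, and that of CR1 was lost without shEZH2#1+ATRA replicate 1 or 2 or shEZH2#2+ATRA replicate 3 (adjusted p = 0.0572 to 0.11).

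Among probe sets that were not tied to 1 gene, 3 of 1754 with several symbols (0 of them higher with shEZH2#1) and 2 of 12083 without a symbol (both higher with shEZH2#1) were past the thresholds.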
